A study of Mus musculus with 12 samples.

Results

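The mRNA of 10 inhibitory myeloid receptors was followed in mouse liver and in cultured macrophages given esculetin, a plant coumarin. The genes were Lilrb4a, Lilrb4b, Pirb, Cd300a, Sirpa, Pilra, Vsir, Cd274, Cd200r1 and Havcr2, which are 10 of the 55357 gene identifiers in each count table. They were chosen by their counts in the esculetin-treated and control cells, since Lilrb4a, Lilrb4b and Vsir were much higher in treated cells. Their cell values are therefore given as a description without p-values, whereas the liver values, which were not used to pick them, were tested.

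RNA was measured in 12 libraries that form 4 groups of 3. The liver libraries came from male wild-type C57BL6/J mice of 8 to 9 weeks, and each library pooled a pair of mice. Control mice received 2.5% Tween-80 by gavage and treated mice received esculetin at 90 mg/kg per day, in each case for 7 days. All of these mice ate a control diet (10% of energy from fat) for 4 days and then a high-fat diet (60%) for 3 days. The cell libraries came from RAW264.7, a transformed mouse macrophage line that cannot stand for every tissue macrophage. All cell groups held DIL-labelled oxidized LDL at 25 µg/mL, so no group was free of lipid loading, and they received DMSO (control) or esculetin at 40 µg/mL for 24 h. Nothing in the labels says whether the cell libraries came from separate cultures, so p-values measure the spread between these samples only, which may be technical.

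Inhibitory receptors of myeloid cells set the threshold at which macrophages, monocytes and neutrophils respond. Many of them carry immunoreceptor tyrosine-based inhibitory motifs (ITIMs) in the cytoplasmic tail. Once an Src-family kinase phosphorylates the tyrosine, the motif recruits the phosphatases SHP-1 (Ptpn6), SHP-2 (Ptpn11) or SHIP-1 (Inpp5d), which oppose signals from activating receptors paired with Tyrobp or Fcer1g. Others act without an ITIM. VISTA (Vsir) and PD-L1 (Cd274) are proteins of the B7 family, Cd200r1 signals through the adaptors Dok2 and Dok1, and TIM-3 (Havcr2) has a tail bound by Bag6.

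Library totals ran from 13752842 to 20001959 counts in the cells and from 14659876 to 20346460 counts in the liver. The first principal component of log2 CPM held 77.9% of the variance in the cells and separated the treatments. In the liver it held 39.9%, and it set control replicate 1 (score -47.9) apart from the other 5 libraries (-3.44 to 19.4), so the liver results are given with and without that library. Macrophage identity was visible in RAW264.7, where 7 macrophage markers summed to between 1993 and 2219 CPM in control libraries and all 5 hepatocyte markers stayed at or under 3 counts. Of 6 Kupffer cell markers, 4 (Clec4f, Timd4, Vsig4 and C1qa) were also at or under 3 counts in every cell library.

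Lilrb4a (also called gp49B) and Lilrb4b (gp49A) are neighbouring close copies on chromosome 10 of GRCm39, on the plus strand. Lilrb4b spans chr10:51356728-51362799 and Lilrb4a spans chr10:51367027-51372707. Lilrb4a is the inhibitory receptor of the pair, which in the mouse binds the integrin with the αv chain, and Lilrb4b is its relative without an ITIM. A search of the reference coding sequences shows that difference. An ITIM was read as a tyrosine codon with an isoleucine, leucine, valine or serine codon 2 places before it and an isoleucine, leucine or valine codon 3 places after it, behind the membrane-spanning stretch. Lilrb4a has 2 such sites, in exons 8 and 9, at tyrosine codons 300 and 322, and Lilrb4b has 0. The sites are shown because they separate copies whose mRNAs behaved alike; capitals mark the 6 codons of the motif in Lilrb4a (chr10:51372117-51372134 and chr10:51372290-51372307) and the matching bases in Lilrb4b (chr10:51361838-51361855 and chr10:51362011-51362028).

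Lilrb4a codon 300: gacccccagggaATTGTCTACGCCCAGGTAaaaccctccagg

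Lilrb4b counterpart: cccccccagggaATTGTGTACGCCCAGGTA

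Lilrb4a codon 322: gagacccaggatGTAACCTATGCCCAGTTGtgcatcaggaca

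Lilrb4b counterpart: gagacccaggatGTAACCTATGCCCAGTTG

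The letters of the motif are thus still present in Lilrb4b, with 17 of 18 identical bases at the first site and 18 of 18 at the second. They are read in another frame there. Exon 8 has 66 bases in Lilrb4a and 68 in Lilrb4b, the first counterpart runs into the stop codon of Lilrb4b, and the second ends 65 bases past it. The coding sequence behind the membrane-spanning stretch has 69 codons in Lilrb4a and 37 in Lilrb4b. These are sequences of the C57BL/6J reference and not of the RAW264.7 line.

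The copies also limit how far their counts can be told apart. The reference transcripts were 96.7% identical over 1460 aligned bases, with a longest identical run of 241 bases. Of the 150-base windows, the read length used, 92 of 1313 in Lilrb4a (7.01%) and 92 of 1687 in Lilrb4b (5.45%) occur letter for letter in the other gene. Within the coding sequence, 96.0% identical, no window of that length was shared. Most full-length reads that match the reference could therefore be placed, but the sequence of the RAW264.7 line was not compared. How the authors treated reads with several places is not given in the sources used here. A readthrough gene annotated over the pair, Gm49339, shares 91.7% of the exonic bases of Lilrb4a and 6.64% of those of Lilrb4b, and it received 0 to 5 counts in any library. The shared windows make the split between the copies less certain than their sum. How reads in exons shared with Gm49339 were counted is not given either. If such reads were left out, the counts of Lilrb4a and the sum of the pair would be too low.

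In the macrophages, Lilrb4a and Lilrb4b had the largest increases among the 9 of 10 receptors that passed the filter on low counts. Lilrb4a stood at 55.2, 42.1 and 45.0 CPM (counts scaled to library size, with TMM factors) in the 3 control libraries and at 869, 858 and 731 CPM in the 3 esculetin libraries. Lilrb4b stood at 40.3, 33.3 and 36.8 CPM in control and at 802, 791 and 793 CPM with esculetin. For each gene the lowest esculetin library was far above the highest control library. The log2 fold change was 4.11 (SE 0.13, 17.3-fold) for Lilrb4a and 4.43 (SE 0.10, 21.6-fold) for Lilrb4b.

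Summed over the pair, the level went from 84.2 ± 10.3 CPM (SD, n = 3) to 1615 ± 79.0 CPM (SD, n = 3), which is 4.26 ± 0.12 (SE) on the log2 scale. The pair then held between 0.145% and 0.166% of all counts of an esculetin library, against 0.00766% to 0.00976% of a control library. Lilrb4a gave 57.8%, 55.8% and 55.1% of the pair's counts in control libraries and 52.0%, 52.0% and 48.0% in esculetin libraries. The copies therefore rose together, with a slightly lower share of Lilrb4a in each esculetin library than in any control library.

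VISTA, encoded by Vsir (chr10:60182630-60208463, plus strand), is a B7-family checkpoint that holds T cells and myeloid cells in check. Its mRNA was already abundant in control macrophages, at 175, 193 and 180 CPM, and reached 688, 732 and 726 CPM with esculetin. The groups lay far apart, with a log2 fold change of 1.97 (SE 0.08, 3.92-fold).

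Among the other receptors with ITIMs, Cd300a, which binds phosphatidylserine and phosphatidylethanolamine, had 33.1, 37.5 and 34.6 CPM in control and 79.0, 82.1 and 98.0 CPM with esculetin. Its log2 fold change was 1.30 (SE 0.10). Sirpa, the receptor for the "do not eat me" protein Cd47, had 136, 136 and 140 CPM in control and 205, 240 and 289 CPM with esculetin, with a log2 fold change of 0.83 (SE 0.11). The esculetin libraries spread more widely for Sirpa than the control libraries did, but none overlapped them. The ITIM codons of these receptors are shown for comparison with those of Lilrb4a, with the 6 codons of each motif in capitals.

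Cd300a codon 262, chr11:114790672-114790689: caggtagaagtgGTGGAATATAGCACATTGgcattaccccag

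Cd300a codon 274, chr11:114791973-114791990: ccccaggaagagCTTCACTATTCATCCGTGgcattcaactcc

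Sirpa codon 440, chr2:129471874-129471891: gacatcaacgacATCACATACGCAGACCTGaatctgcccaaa

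Sirpa codon 481, chr2:129471997-129472014: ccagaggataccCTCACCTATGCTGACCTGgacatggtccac

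Sirpa codon 505, chr2:129472069-129472086: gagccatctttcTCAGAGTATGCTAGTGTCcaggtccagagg

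By the same search Pirb had 3 sites and Pilra 1, whereas Vsir, Cd274, Cd200r1 and Havcr2 had 0. Pirb, a receptor for MHC class I molecules, was close to absent from RAW264.7. It had 16, 4 and 4 counts in control libraries and 16, 12 and 24 counts in esculetin libraries, so the groups overlapped. Its log2 fold change of 1.42 (SE 0.55) went from 1.09 to 2.40 as single libraries were left out, the highest value being that without control replicate 1. Pilra, a receptor for sialylated ligands such as the neuronal protein PIANP, had 3, 2 and 3 counts in control and 9, 1 and 0 with esculetin. It did not pass the filter, and no fold change is given.

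The receptors without an ITIM behaved differently from each other. Cd200r1, the receptor for CD200, had 7.21, 7.48 and 7.49 CPM in control and 13.5, 12.0 and 10.9 CPM with esculetin, without overlap (log2 fold change 0.71, SE 0.14). Cd274, the ligand of PD-1, had 14.9, 13.3 and 15.4 CPM in control and 12.5, 12.4 and 10.1 CPM with esculetin. It was the only receptor of the 10 whose esculetin libraries all lay below its control libraries in the cells, and its log2 fold change was -0.32 (SE 0.14). Havcr2 had 42.5, 32.002 and 32.5 CPM in control and 46.5, 43.3 and 25.8 CPM with esculetin, so its groups overlapped (log2 fold change 0.11, SE 0.20).

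**Figure D1:**
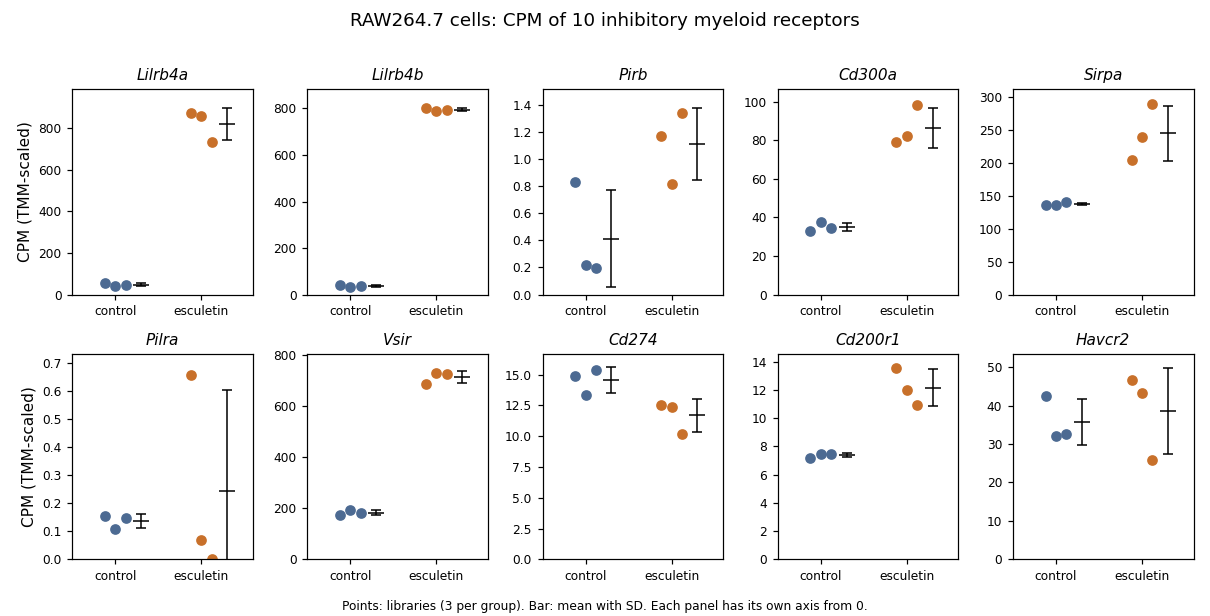
TMM-scaled CPM (y axis, from 0 in each panel) of the 10 receptors in RAW264.7 libraries, 3 control (blue) and 3 esculetin (orange), with mean and SD beside the points; the bar of Pilra is clipped at 0. Lilrb4a, Lilrb4b, Vsir, Cd300a, Sirpa and Cd200r1 have all esculetin points above all control points, and Cd274 has them below.

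Counted over the cells, 7 of the 9 receptors that could be fitted passed an adjusted p of 0.05, all 7 upward, where 57.7% of all 13277 tested genes passed in either direction and 28.7% passed upward. The groups did not overlap in 6 receptors that were higher, against 31.0% of all tested genes, and in 1 that was lower, against 33.1%. Pirb lay just inside the adjusted p limit and Cd274 just outside it, which is a description only. The median log2 fold change of the 9 receptors was 1.30, beside -0.01 for all tested genes. The receptors were chosen in this contrast, so nothing further is read from these counts.

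Per kilobase of transcript, the control macrophages had the most mRNA of Vsir (37.7 ± 1.88 CPM per kb, SD, n = 3), followed by Lilrb4a (32.4 ± 4.71), Sirpa (30.1 ± 0.457) and Lilrb4b (20.04 ± 1.92). Vsir and Lilrb4a, and Lilrb4a and Sirpa, lay within about 1 SD or little more of each other. Havcr2 (12.6 ± 2.10), Cd300a (7.55 ± 0.483), Cd200r1 (3.90 ± 0.0850) and Cd274 (3.68 ± 0.271) followed, the last pair within 1 SD of each other, and Pirb and Pilra came last at 0.107 and 0.0474 CPM per kb. With esculetin the order was headed by Lilrb4a (561 ± 52.3) and Lilrb4b (433 ± 3.29), ahead of Vsir (148 ± 4.91) and Sirpa (53.5 ± 9.29). Cd300a (18.6 ± 2.201) stood above Havcr2 (13.6 ± 3.94) there, within the summed SD of the 2 genes.

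The liver gave a different picture. None of the 6 receptors that passed the filter was called by edgeR at an adjusted p of 0.05, where 11 of 12813 tested genes (0.0859%) were called in all. At an unadjusted p of 0.05, 1 of the 6 passed, beside 8.37% of all tested genes, and DESeq2 and limma-voom also called 0 of 6. Liver is a mixture of hepatocytes with Kupffer cells, endothelial cells and others, and in such bulk samples fewer cells of a type and less RNA per cell cannot be told apart.

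Sirpa was the receptor with the most liver mRNA, at 21.7, 25.4 and 22.1 CPM in control and 17.7, 16.2 and 15.7 CPM with esculetin. All esculetin libraries lay below all control libraries, but the log2 fold change of -0.48 (95% interval -0.78 to -0.18) had an adjusted p of 0.319 with edgeR (unadjusted 0.0043). Without control replicate 1 it was -0.52 with an adjusted p of 0.220, and over 16 alternative settings the adjusted p ran from 0.112 to 0.932. Cd300a had 7.06, 6.41 and 6.93 CPM in control and 5.99, 6.36 and 4.59 CPM with esculetin. Its groups did not overlap either, with a log2 fold change of -0.27 (95% interval -0.69 to 0.16, adjusted p = 0.738 with edgeR), or -0.23 without control replicate 1. These were the 2 of 6 tested receptors whose groups did not overlap, both lower, while 7.95% of all tested genes were lower without overlap.

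Vsir had 5.53, 8.73 and 9.26 CPM in control livers and 8.17, 8.25 and 7.96 CPM in esculetin livers, and the groups overlapped. The log2 fold change was 0.05 (95% interval -0.40 to 0.50, adjusted p = 0.966 with edgeR). The lowest value was that of control replicate 1, and without it the log2 fold change was -0.14 (adjusted p = 0.834). The difference between liver and cells was not tested, since the cell contrast had chosen the gene.

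The remaining tested receptors also overlapped between the groups. Pirb had 3.99, 3.01 and 2.45 CPM in control and 2.89, 1.75 and 2.39 CPM with esculetin, a log2 fold change of -0.42 (95% interval -1.05 to 0.22). For Cd274 the libraries held 2.15, 2.32 and 1.75 CPM in control and 1.91, 0.779 and 1.36 CPM with esculetin, a log2 fold change of -0.61 (95% interval -1.38 to 0.17). For Pilra they held 3.75, 5.08 and 5.07 CPM against 5.07, 4.48 and 3.17 CPM, a log2 fold change of -0.13 (95% interval -0.66 to 0.40). The edgeR adjusted p was 0.726 for Pirb, 0.668 for Cd274 and 0.914 for Pilra. Without control replicate 1 the log2 fold changes were -0.21 for Pirb, -0.58 for Cd274 and -0.25 for Pilra, with edgeR adjusted p of 0.873, 0.713 and 0.802. Pirb and Pilra thus had more CPM per kb in control liver (0.816 and 1.61) than in control RAW264.7 (0.107 and 0.0474), the reverse of the other 8 receptors. The tables were scaled separately, so these levels are set side by side without a test.

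The pair that rose most in the macrophages was at the edge of detection in the liver. Lilrb4a had 12, 2 and 1 counts in control and 3, 1 and 0 counts with esculetin, and 12 of the 15 control counts came from control replicate 1. Lilrb4b had 15, 8 and 8 counts against 11, 4 and 9. Cd200r1 (8, 2 and 5 against 4, 3 and 3 counts) and Havcr2 (6, 4 and 0 against 9, 1 and 2 counts) were as scarce. These 4 receptors did not pass the filter, and small changes of theirs were not detectable at this depth. With no filter all 10 receptors were tested in the liver, and edgeR called 0.

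Over the 6 tested receptors, the fitted log2 fold change was below 0 for 5 and above 0 for 1, with a median of -0.34 beside -0.02 for all tested genes, of which 53.5% were below 0. Macrophage and Kupffer cell markers moved in the same direction in part. Among the 13 markers, Adgre1 (log2 fold change -0.31), Csf1r (-0.28), Cd68 (-0.50) and Marco (-0.77) had all esculetin libraries below all control libraries. Of all tested genes, 7.95% were lower without overlap. The other tested markers overlapped between the groups, and of these Lyz2 (0.11) and Vsig4 (0.02) lay above 0. None of the 12 tested markers was called by edgeR, DESeq2 or limma-voom, and 3 of the 12 had an unadjusted p under 0.05 with edgeR. The 7 macrophage markers summed to 151 to 191 CPM in control and 152 to 166 CPM in esculetin livers, the 6 Kupffer markers to 345 to 421 CPM and 330 to 367 CPM, and no marker of either list stayed at or under 3 counts. The part of macrophage content in the values of Sirpa and Cd300a was not tested.

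**Figure D2:**
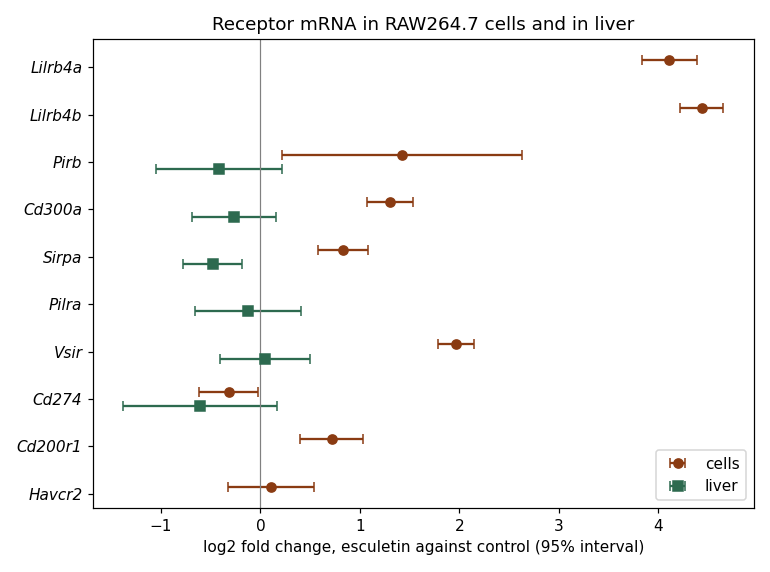
Log2 fold change of esculetin against control (x axis) with its 95% interval for each receptor that passed the filter, in RAW264.7 cells (circles, 9 receptors) and in liver (squares, 6 receptors). In the cells Lilrb4a and Lilrb4b lie at 4.11 and 4.43 and Vsir at 1.97, while the liver values lie between -0.61 and 0.05.

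**Figure D3:**
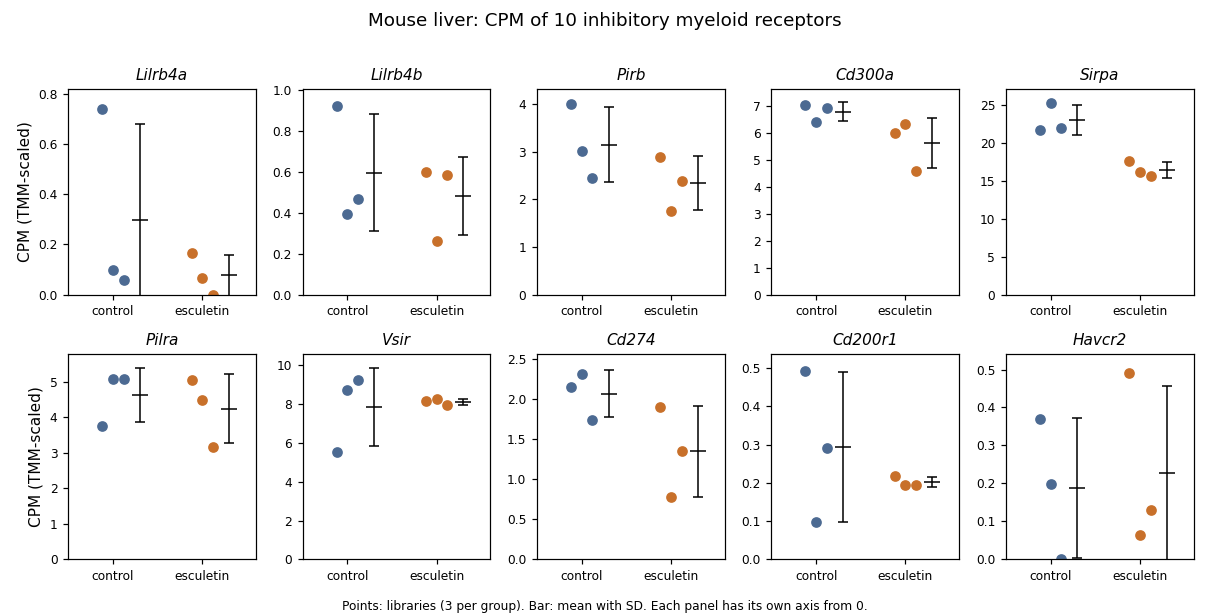
TMM-scaled CPM (y axis, from 0 in each panel) of the 10 receptors in liver libraries, 3 control (blue) and 3 esculetin (orange), with mean and SD beside the points; bars that reach below 0 are clipped. Sirpa and Cd300a have all esculetin points below all control points, and the other 8 receptors overlap.

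The genes around these receptors were described by 4 lists of binding partners, signalling proteins, activating relatives and other inhibitory receptors, 78 genes in all, none of them a receptor above. In the cells, 35 of the 51 tested genes changed by edgeR's quasi-likelihood test at an adjusted p of 0.05, 26 upward and 9 downward, beside 57.7% of all tested genes in either direction and 28.7% upward. In the liver, edgeR called 0 of 52, with 3 at an unadjusted p under 0.05, and DESeq2 and limma-voom called 0. The lists were drawn up with earlier results of these data known, which limits what the p-values of their genes show.

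Among 17 binding partners, 12 were tested in the cells, of which 4 rose and 4 fell (median log2 fold change -0.02). Over all tested genes in the cells, 57.7% were called in either direction. Itgav, the integrin αv chain that pairs into a ligand of Lilrb4a, rose from 134 ± 13.6 to 328 ± 17.4 CPM over 3 libraries each, a log2 change of 1.29 ± 0.09 (SE) whose adjusted p from edgeR was 1.07e-06. Itgb3, the other integrin chain of the list, had 1, 0 and 4 counts in control and 6, 7 and 17 with esculetin. It did not pass the filter, so the level of a whole integrin cannot be read from Itgav. Cd47, the ligand of Sirpa, rose from 136 ± 3.59 to 237 ± 13.99 CPM (log2 fold change 0.80). Cd80, which also binds PD-L1, rose by a log2 fold change of 1.49, and Pdcd1, which encodes PD-1, by 0.86. The class I heavy chain H2-D1, of the ligands of Pirb, fell by 0.57 on the log2 scale. The other heavy chain of the list, H2-K1, was not called (log2 fold change -0.03). Pianp, a ligand of Pilra, fell by 0.66.

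All 14 signalling proteins were tested, and 7 rose and 3 fell, beside 57.7% of all tested genes called in either direction. The median log2 fold change was 0.44. Ptpn6, which encodes the ITIM-bound phosphatase SHP-1, fell from 546 ± 29.4 to 295 ± 13.2 CPM over 3 libraries each, a log2 change of -0.89 ± 0.08 (SE) whose adjusted p from edgeR was 5.35e-06. The other phosphatases of the list, singled out after their values were seen, were not called (log2 fold change 0.20 for Ptpn11 and -0.0034 for Inpp5d). The Src-family kinase Lyn, which phosphorylates ITIMs, rose from 118 ± 0.135 to 220 ± 24.5 CPM (log2 fold change 0.90). Src itself rose from 0.566 ± 0.0690 to 5.97 ± 2.29 CPM (log2 fold change 3.39, SE 0.35), so it remained scarce. The adaptors Fyb1 (1.51) and Skap2 (0.77), which join Sirpa to the cytoskeleton, and Rasa1 (1.74), the Ras GTPase-activating protein below Cd200r1, also rose. Of the adaptors of Cd200r1, Dok2 rose (1.03) and Dok1 fell (-0.30), and the kinase Csk fell as well (-0.46). Dok2, Dok1 and Csk were named after their values were seen.

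Activating relatives were tested for 10 of 25 genes in the cells, and 8 rose and 0 fell by edgeR at an adjusted p of 0.05 (median log2 fold change 0.59), beside the 28.7% of all tested genes that passed upward. With 9 of the 25 at or under 3 counts in every cell library, paired receptors such as Pilrb1 were close to absent. Cd300lb, an activating receptor of the family of Cd300a, rose from 182 ± 6.37 to 301 ± 23.7 CPM (log2 fold change 0.73, SE 0.09, edgeR adjusted p = 2.91e-05). Syk, the kinase below the activating chains, rose by 0.82 and Trem2, a lipid-sensing activating receptor, by 0.72. The relatives Cd300c2 (0.66) and Cd300ld (0.40) and the chain Fcer1g (0.30) rose less. Activating and inhibitory members of the CD300 family were thus higher in the same libraries.

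Other inhibitory receptors were tested for 15 of 22 genes in the cells, of which 7 rose and 2 fell (median log2 fold change 0.41). Beside this stand 57.7% of all tested genes called in either direction and 28.7% upward. The genes named next are the called ones with the smallest p, and the 2 that fell are not among them. Cd72, a C-type lectin with an ITIM, rose from 197 ± 6.36 to 534 ± 71.5 CPM (log2 fold change 1.43, SE 0.10, edgeR adjusted p = 1.02e-06). The collagen receptor Lair1 rose from 9.32 ± 0.933 to 37.5 ± 4.202 CPM (log2 fold change 2.01), and Milr1, an ITIM receptor also known as allergin, from 25.8 ± 1.95 to 68.8 ± 8.04 CPM (1.42). Klra2, a Ly49-family receptor, went from 4, 7 and 3 counts to 79, 80 and 159 counts (log2 fold change 4.77, SE 0.38). Cd300lf (2.04) and Clec4a2 (2.05) rose from under 1 CPM. Of 6 macrophage markers tested in the cells, 4 rose: Lyz2 (log2 fold change 2.45), Csf1r (0.96), Itgam (0.71) and Adgre1 (0.31). The others were not called, beside 28.7% of all tested genes called upward. The 7 macrophage markers summed to between 4738 and 7271 CPM with esculetin. The only tested Kupffer marker, Cd5l, fell (-1.98), and the general leukocyte marker Ptprc was not called (-0.27). The part of the macrophage markers in the receptor values was not tested.

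**Figure D4:**
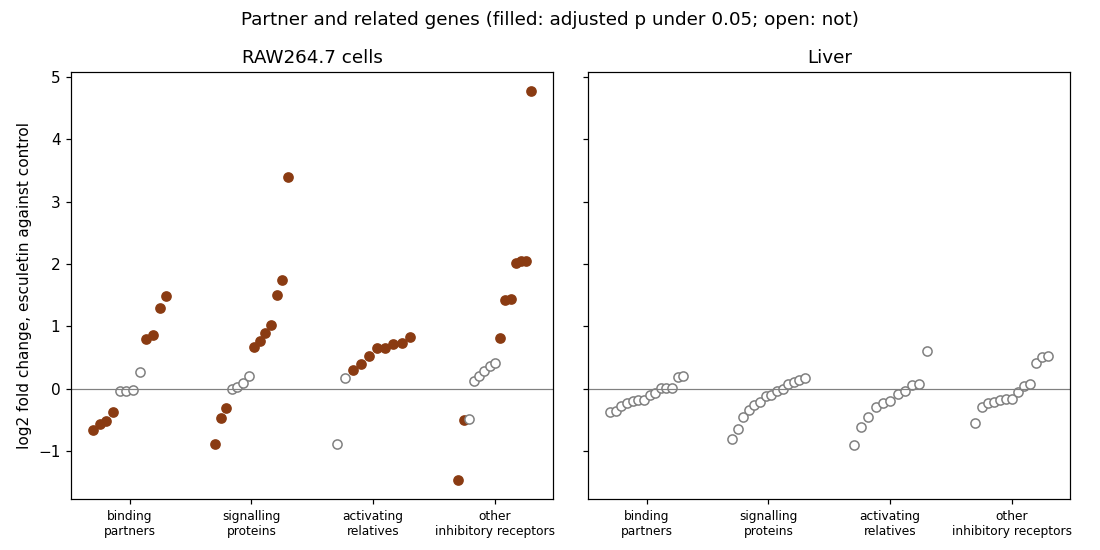
Log2 fold change of esculetin against control (y axis) for each tested gene of 4 lists (x axis) in RAW264.7 cells (left, 51 genes) and liver (right, 52 genes); filled points have an adjusted p under 0.05 with edgeR. In the cells 26 points are filled above 0 and 9 below, with Klra2 at 4.77 and Src at 3.39 the highest, and in the liver 0 are filled.

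The genes most like Lilrb4a and Vsir over all 12 libraries were ranked by Pearson's r of log2 CPM among 8822 genes. These points fall into the liver libraries and the treated and untreated cells, and r mostly reflects those clusters. For Lilrb4a the nearest were Mndal, an interferon-inducible gene (0.998), Picalm, an adaptor of clathrin-mediated uptake (0.998), and Trim56, a ubiquitin ligase (0.998). Mndal went from 24.9 to 94.5 CPM in the cells and stood at 3.58 and 2.72 CPM in control and esculetin livers. For Vsir the nearest were Srgn, the proteoglycan serglycin (0.999), Pam, a peptide-amidating enzyme (0.999), and Clec4e, the lectin Mincle (0.998). Srgn went from 110 to 420 CPM and Clec4e from 17.4 to 145 CPM in the cells. The fold changes of these genes differed, so the likeness is one of shape and not of size.

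The 250 bases before the start of each receptor's Ensembl canonical transcript were searched, on both strands, for the letters of 6 factors that act in myeloid genes. The promoters of Lilrb4a (chr10:51366777-51367026) and Lilrb4b (chr10:51356478-51356727) are 96.8% identical, and they are shown because the copies rose together. Both hold the letters TTCNNNGAA (a GAS element, bound by STAT factors) from position -124 relative to the start, in capitals. They occur in 7.70% of the 21769 promoters searched.

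Lilrb4a promoter: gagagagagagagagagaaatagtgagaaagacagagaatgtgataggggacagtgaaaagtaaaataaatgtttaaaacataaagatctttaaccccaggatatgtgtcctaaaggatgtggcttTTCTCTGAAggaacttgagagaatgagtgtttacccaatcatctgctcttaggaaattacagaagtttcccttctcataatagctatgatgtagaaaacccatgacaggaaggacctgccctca

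Lilrb4b promoter: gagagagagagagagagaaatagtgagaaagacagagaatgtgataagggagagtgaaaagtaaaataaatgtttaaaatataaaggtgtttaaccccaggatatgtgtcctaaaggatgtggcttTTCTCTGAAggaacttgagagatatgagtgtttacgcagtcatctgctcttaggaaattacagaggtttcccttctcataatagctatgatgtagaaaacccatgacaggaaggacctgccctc

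C/EBPβ is the factor the study is concerned with. The C/EBP letters TTGCNNAA occur in 9.34% of all promoters. Among the 10 receptors, Cd300a and Pilra held them, from positions -214 and -62 relative to the start. The Cd300a window (chr11:114780617-114780866, plus strand) is shown because this gene was higher in treated cells. It lies inside the annotated gene (chr11:114768840-114795480), since other transcripts of Cd300a start farther upstream, and the same holds for the Sirpa window and part of the Pilra window. Capitals mark the C/EBP letters.

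Cd300a promoter: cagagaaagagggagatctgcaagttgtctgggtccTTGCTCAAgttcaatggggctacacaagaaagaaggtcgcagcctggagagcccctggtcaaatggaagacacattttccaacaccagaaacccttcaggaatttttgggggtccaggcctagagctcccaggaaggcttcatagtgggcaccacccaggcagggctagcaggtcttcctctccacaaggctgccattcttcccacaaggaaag

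The letters of the interferon-stimulated response element (GAAA, 2 bases of any kind, GAAA), present in 3.32% of promoters, were in Cd274 and Pilra. Havcr2 held the AP-1 letters TGANTCA (6.17% of promoters). Pirb held the PU.1 letters GAGGAAGT (2.08%) and the NF-kB letters (GGG, 3 bases of any kind, TTCC) found in 4.70%. The windows of Vsir, Sirpa and Cd200r1 held none of the 6. A match of letters is a description and not a binding site, and no match says only that the letters are not in this window.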

How the data were processed

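Per the labels and the study, RNA was sequenced as 150-base paired ends. The deposited values are raw counts per gene, made by the authors with HISAT2 2.2.1 on GRCm39 and featureCounts. Strandedness, the handling of multi-mapping reads and the annotation release are not given in the sources used here. Pilra, Vsir, Cd274, Cd200r1 and the Lilrb4 pair overlap antisense genes, whose reads could not be told apart without strand, and Sirpa and Cd300a overlap annotated non-coding genes on their own strand.

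Identifiers were matched to GENCODE release M39 (GRCm39), 54749 of 55357. The 608 unmatched ones held at most 0.0330% of a library. The liver and cell tables were fitted separately with edgeR 4.0.16 under R 4.3.3 (filterByExpr, TMM factors, quasi-likelihood test, treatment as the only term, Benjamini-Hochberg adjustment over all tested genes, two-sided, threshold 0.05). Values with ± are SD over 3 libraries, and SE is that of the edgeR log2 fold change. An exact permutation test of 3 against 3 libraries cannot give a p below 0.1. Limma-voom (limma 3.58.1; the study names limma) and DESeq2 1.42.0 were alternatives, with other scalings, filters, a replicate block and single libraries left out. On simulated counts, edgeR recovered 90% of 2-fold changes in the liver design over 12959 genes and 94% in the cell design over 13120. False calls made up 6.40% and 6.28% of its calls. The simulation gave every gene the same dispersion, changed only well-counted genes and held no outlying library. It therefore does not give the power for these receptors in the real libraries.

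The receptors and gene lists were chosen with earlier results of these data known. Beyond the receptors and the cell type markers, the text names up to 6 called genes with the smallest p per list and comparison, and the 3 genes most like Lilrb4a and Vsir in log2 CPM (prior count 2, mean of at least 10 CPM in the cells). Itgb3, H2-K1, Ptpn11 and Inpp5d are named beside the called list genes, after their values were seen. The called genes Dok1, Dok2, Csk, Selplg and B2m are named beyond those 6, also after their values were seen. Pira6 found no identifier. Of the other marker lists, hepatocyte, endothelial, dendritic, monocyte and neutrophil, B, T and NK and general leukocyte genes gave 0 edgeR calls in liver (3 at an unadjusted p under 0.05, 1 call, of Cyp3a11, with DESeq2 and 0 with limma-voom). In the cells Ccr2 rose and Zbtb46 and Cd5l fell. CPM per kb used the Ensembl canonical transcript, and coding sequences were those of the basic transcript with the longest coding sequence. The tail was taken as what follows the last stretch of 19 codons with a mean hydropathy of at least 1.6.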

Additional observations from a re-analysis of the deposited data

Results flagged for a closer look

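For Sirpa and Cd300a every esculetin library of the liver lay below every control library, while in the cells every esculetin library lay above every control library. Of all tested genes, 7.95% were lower without overlap in the liver and 31.0% were higher without overlap in the cells. The share of genes with both was not computed. For Sirpa the log2 fold change was -0.48 (liver) and 0.83 (cells), and for Cd300a -0.27 (liver) and 1.30 (cells). The difference between liver and cells was not tested, because the cell contrast had chosen the genes, and neither liver value passed the edgeR threshold.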

How the results depend on the processing

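The number of receptors called in the liver was 0 in the main setting and in all 16 alternatives, including the replicate block and each library left out. The sign of the liver log2 fold change changed for Vsir with library size only (-0.00020, from 0.05) and without control replicate 1 (-0.14, the other omissions reaching 0.17), and for Pilra without esculetin replicate 3 (0.032, from -0.13, the lowest being -0.29 without esculetin replicate 1). The number of partner genes called in the liver was 0 except under the study's criterion (unadjusted p under 0.05 and fold change over 1.5 with limma-voom), which gave 3, all lower: Pilrb1, Cd300lb and Fyb1, named after their values were seen. In the cells the receptors past the threshold numbered 6 or 7, and the partner genes called 26 to 38, against 7 and 35. The receptor counts are a description, since the cell contrast had chosen the receptors. Which receptors passed also changed: Cd274 passed as lower with library size only (-0.38) and without esculetin replicate 1 (-0.37), and Havcr2 passed without esculetin replicate 3 (0.33) and was -0.054 without esculetin replicate 1. Pirb passed the threshold in 8 of 15 alternatives and the log2 fold changes stayed within 4.04 to 4.23 for Lilrb4a fitted alone and 4.37 to 4.4996 for Lilrb4b. Over all liver genes the number called went from 11 to 98 with DESeq2, 339 without a filter and 499 under the study's criterion. It was 0 to 11 under other scalings and the filter at 1 CPM, and 0 to 31 with a library left out. The causes of these differences were not tested.

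Same-numbered libraries did not deviate together in every case (correlations 0.140, -0.0053 and 0.103 in the liver, 0.165, -0.030 and 0.080 in the cells). In each table control replicates 1 and 3 were most like the esculetin replicate of the same number. Control replicate 2 was most like esculetin replicate 3. The match was incomplete, and the numbers were not taken as pairs. The replicate block gave 0 called receptors and 0 partner genes in the liver, 7 receptors past the threshold and 36 partner genes in the cells, and 123 calls over all liver genes. Low counts limit the liver result for Lilrb4a, Lilrb4b, Cd200r1 and Havcr2.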
